A study of Mus musculus with 8 samples.

Results

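The comparison described here is between the H3K9ac peak lists of BM cells from 1 curcumin-treated and 1 vehicle-treated *GFI1-KD* library, which are 2 of the 6 H3K9ac libraries of the series. Their members were assigned by the genotype and treatment labels. By their labels both libraries came from whole BM cells of C57BL/6 mice carrying the Nup98-HOXD13 transgene, a fusion oncogene that gives mice a myelodysplastic disease, together with the *GFI1-KD* genotype, in which *GFI1* is expressed at a reduced level. Vehicle stands for DMSO, and the curcumin dose was 20 mg/kg, given i.p. once a week. BM was taken when a mouse showed overt leukaemia or failing health, so the libraries are not matched for time, and the ages, the sex and whether a library pools mice were not given in the sources used here. The curcumin and vehicle libraries of *GFI1-36N* (an allele with asparagine in place of serine) and *GFI1-36S* mice are set beside the pair where it helps, and, since the file names and the labels disagree on the treatment for *GFI1-36S*, the labels were followed. The *GFI1-36N* lists are named as heterozygous for vehicle and homozygous for curcumin. Each group is a single library, so none of the differences was checked against replicates and p-values were not computed. The study describes the same data as frozen BM in one place and as c-kit+ (progenitor) cells in another, and which of these the libraries hold was not tested. In a mixture of cells, fewer cells of a type and less H3K9ac per cell cannot be told apart.

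H3K9ac is an acetyl mark placed on histone H3 by acetyltransferases and removed by deacetylases. It sits at active promoters and enhancers, and long uninterrupted stretches of it mark highly active genes such as those that set cell identity. GFI1 is a zinc finger repressor that brings deacetylases to its target genes in stem cells and developing myeloid cells, and curcumin has been used as an inhibitor of acetyltransferases. The comparison asks at which genes and sites H3K9ac differed when mice with low GFI1 received curcumin.

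The vehicle list held 39272 peaks and the curcumin list 30784. The lists report fold enrichment over the local background and are not scaled to each other, so each peak was given its percentile rank by fold enrichment among all peaks of its own list, from 0 (no peak) to 100. A gene was said to fall or rise when its strongest promoter peak, within 1 kb of a coding TSS, moved by 20 rank points or more. The median summit held 35 fragments with vehicle and 36 with curcumin, recovered from the deposited fold and p values, and the depth relative to the control was 1.19 and 1.10. Of the marker genes fixed for each cell type, all 6 erythroid markers had a promoter peak with vehicle and 2 with curcumin, and their summed rank was 447.5 against 91.7. The summed rank of the 5 neutrophil markers was 377.5 and 276.7, that of the 5 monocyte markers 391.2 and 404.9, and that of the 5 progenitor markers 312.9 and 325.6. The progenitor sum includes *Hoxa9*, which went from 62.8 to 99.7 under a wide curcumin peak whose summit lay outside the promoter window. It also includes *Kit*, which fell. None of the 3 NK-cell markers had a peak in either library, the 4 B-cell markers had 2 peaks with vehicle and 0 with curcumin, and the 4 T-cell markers had 1 in each. The summed rank of the 4 megakaryocyte markers was 137.3 and 55.0, that of the 4 endothelial and stromal markers 101.3 and 0, and that of the 4 mast cell, basophil and eosinophil markers 24.2 and 0. Markers of several BM cell types were thus present with vehicle, and the erythroid, neutrophil and megakaryocyte ones summed lower with curcumin. The megakaryocyte sum includes *Gp9*, whose vehicle summit lay outside the promoter window. The B-cell, mast cell and stromal sums were lower too, but rest on 2, 1 and 2 vehicle peaks. Of 7 endothelial and stromal genes with a peak, 2 fell and 1, *Pdgfrb*, rose. Their median change was −4.82, against −4.14 over all genes. The part of these cell types in the other differences was not tested.

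The sequences of 4 promoters and 4 distal sites on which the results turn are given first, read from mm10. Capitals mark matches on either strand to any of 8 short motifs. The letters AGATAA are known from binding by GATA factors, and GGAAGT from ETS factors. The letters TGTGGT stand for RUNX factors, and those of AP-1 are TGANTCA. For C/EBP factors TTGCNNAA was searched, and for GFI1 the letters AATCANNGC. MEIS factors were given TGACAG, and the interferon-stimulated response element (ISRE) was taken as GAAANNGAAA. The 3 interferon-stimulated promoters are shown because each lost its peak or nearly all of its rank and holds an ISRE match, with 2 overlapping matches in *Oas1a*. The *Kel* promoter is shown as a red cell gene with a GATA match. Each promoter is the 250 bases before the annotated start of the gene, on the strand of the gene.
Oas2, chr5:120749854-120750103, minus strand: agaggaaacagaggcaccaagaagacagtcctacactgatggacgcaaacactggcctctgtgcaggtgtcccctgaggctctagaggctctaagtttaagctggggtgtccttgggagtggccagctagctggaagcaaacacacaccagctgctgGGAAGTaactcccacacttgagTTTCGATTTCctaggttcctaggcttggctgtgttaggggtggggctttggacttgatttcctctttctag
Ifi27, chr12:103433961-103434210, plus strand: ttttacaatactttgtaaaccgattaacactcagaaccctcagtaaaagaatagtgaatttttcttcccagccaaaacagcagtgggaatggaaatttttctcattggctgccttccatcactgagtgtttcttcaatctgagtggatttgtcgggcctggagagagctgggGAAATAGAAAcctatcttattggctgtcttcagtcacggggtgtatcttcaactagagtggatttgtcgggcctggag
Oas1a, chr5:120907522-120907771, minus strand: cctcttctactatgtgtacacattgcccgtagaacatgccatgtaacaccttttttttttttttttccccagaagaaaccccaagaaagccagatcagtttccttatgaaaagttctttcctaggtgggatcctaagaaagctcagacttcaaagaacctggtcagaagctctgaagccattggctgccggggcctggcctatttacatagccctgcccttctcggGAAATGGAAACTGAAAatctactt
Kel, chr6:41704340-41704589, minus strand: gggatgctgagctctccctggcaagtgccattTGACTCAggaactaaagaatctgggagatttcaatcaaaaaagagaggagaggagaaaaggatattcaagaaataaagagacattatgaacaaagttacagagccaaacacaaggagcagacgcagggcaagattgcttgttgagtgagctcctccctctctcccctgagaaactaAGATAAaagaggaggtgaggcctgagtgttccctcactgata

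The distal sites are shown as 300 bases around the summit, on the plus strand. The first 2 had a peak with vehicle only, 1 in the intergenic stretch upstream of *Hbb-y*, an embryonic beta-globin gene, and 1 upstream of *Slc4a1*, the anion exchanger of the red cell membrane. The last 2 lie in introns of *Ikzf2* and *Adk* under peaks over 10 kb wide that were called with curcumin only.
Hbb-y distal site, chr7:103860140-103860439: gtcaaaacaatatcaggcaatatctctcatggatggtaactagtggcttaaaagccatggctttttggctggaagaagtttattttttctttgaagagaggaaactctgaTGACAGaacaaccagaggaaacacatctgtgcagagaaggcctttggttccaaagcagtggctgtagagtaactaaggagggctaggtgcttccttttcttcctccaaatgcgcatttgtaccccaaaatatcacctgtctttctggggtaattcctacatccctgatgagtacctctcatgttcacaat
Slc4a1 distal site, chr11:102375622-102375921: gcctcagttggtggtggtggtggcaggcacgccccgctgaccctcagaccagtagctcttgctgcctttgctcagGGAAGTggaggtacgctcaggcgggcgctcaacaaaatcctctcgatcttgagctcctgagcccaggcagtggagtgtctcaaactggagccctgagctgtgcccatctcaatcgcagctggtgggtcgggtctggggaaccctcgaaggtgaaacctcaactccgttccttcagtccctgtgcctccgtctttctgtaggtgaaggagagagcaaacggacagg
Ikzf2 distal site, chr1:69668040-69668339: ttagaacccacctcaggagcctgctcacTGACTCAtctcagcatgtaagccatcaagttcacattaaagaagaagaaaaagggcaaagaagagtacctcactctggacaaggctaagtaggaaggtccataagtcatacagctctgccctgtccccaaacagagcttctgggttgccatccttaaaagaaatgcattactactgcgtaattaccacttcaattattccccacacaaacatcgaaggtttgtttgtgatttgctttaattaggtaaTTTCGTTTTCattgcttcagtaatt
Adk distal site, chr14:21151674-21151973: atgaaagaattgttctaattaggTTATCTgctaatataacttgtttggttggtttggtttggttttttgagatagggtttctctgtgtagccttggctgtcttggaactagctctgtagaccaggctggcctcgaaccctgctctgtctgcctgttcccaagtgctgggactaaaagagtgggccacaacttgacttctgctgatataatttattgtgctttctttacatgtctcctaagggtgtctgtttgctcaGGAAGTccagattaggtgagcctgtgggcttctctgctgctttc

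Promoter H3K9ac ranked lower with curcumin at far more genes than it ranked higher. Of 12188 genes with a promoter peak in either library, 1329 (10.9%) fell and 146 (1.2%) rose, and the median change was −4.14 points. When only the 11208 genes with a peak in both libraries were counted, 660 fell and 45 rose. When each list was cut to the same number of top peaks, 880 fell, 248 rose and the median was −0.76. Peaks were also narrower. Across the 11208 shared promoters the median width was 2030 bp with vehicle and 1545 bp with curcumin, 87.9% were narrower, 1411 (12.6%) had a width halved or less and 71 (0.633%) a width doubled or more. In the *GFI1-36N* pair, treated in the same way, 281 genes fell and 984 rose, with a median change of 2.61 points, and in the *GFI1-36S* pair 4269 fell and 271 rose, with a median of −13.0.

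**Figure D1:**
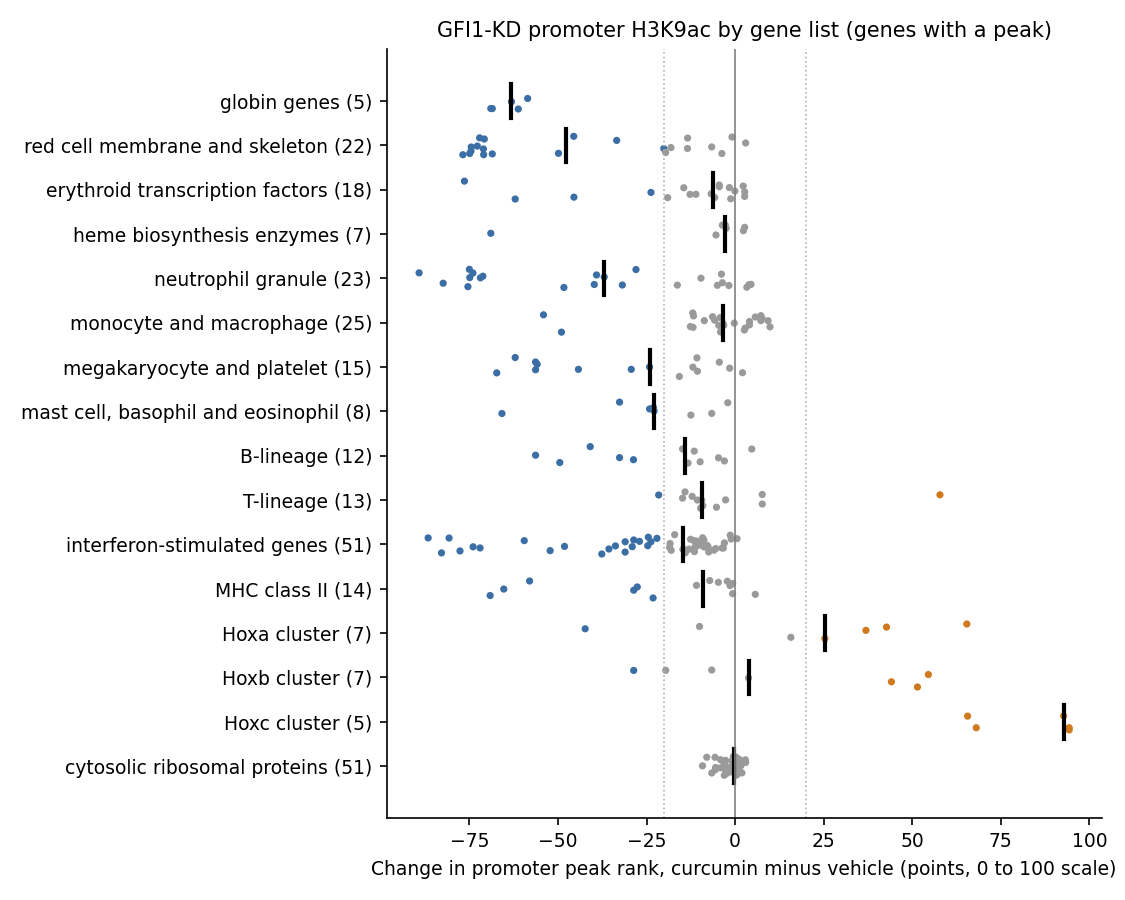
Change in promoter peak rank in *GFI1-KD* BM, curcumin minus vehicle in rank points, for the genes with a peak in 16 of the gene lists (1 dot per gene, number of genes in parentheses). Vertical bars are medians, dotted lines mark a change of 20 points, blue genes fell and orange genes rose. The globin median lay at −63.1, the Hoxc median at 92.7 and the ribosomal protein genes stayed within 20 points of 0.

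*Gfi1* itself, the gene altered in these mice, kept its promoter peak. It ranked 78.1 with vehicle (96 fragments) and 74.1 with curcumin (81 fragments), a change near the median of all genes, while the peak narrowed from 4575 to 2817 bp. The summit of that peak lay outside the 1 kb window. A promoter peak does not measure the level of GFI1, so it is no check of the genotype. Among the other genes the study names, the promoter of *Hmox1*, the stress-induced heme oxygenase, ranked 80.3 and 78.1. *Tnf* ranked 88.3 and 86.4, *Mcl1*, an anti-apoptotic BCL2 relative, 99.3 and 99.8, and *Il6* 32.6 and 16.2. *Kit*, the stem cell factor receptor, fell from 72.4 to 45.8.

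Of all the lists, globin and red cell membrane genes had the lowest medians, at −63.1 and −47.7. All 5 globin genes with a promoter peak had it with vehicle only. The alpha-globin genes *Hba-a2* and *Hba-a1* ranked 68.6 and 61.2 with vehicle, and the beta-globin genes *Hbb-bs* and *Hbb-bt* 63.1 and 58.6. The paired alpha and beta genes are near-identical copies whose reads can be shared, so their values are not separate measurements. All 17 distal sites nearest to globin genes, 13.4 kb in total, were also called with vehicle only. Of these, 6 lay upstream of *Hbb-y* between chr7:103858462-103867143, with the highest at rank 72.2 (chr7:103859450-103860944, the site printed above). This intergenic stretch is where the beta-globin locus control region, the distal enhancer cluster of the locus, is known to lie.

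Of 22 red cell membrane and skeleton genes with a peak, 14 fell (63.6%, against 10.9% of all genes) and none rose. *Slc4a1* (chr11:102348824-102366203) ranked 80.9 with vehicle and 9.94 with curcumin, and its summit went from 116 to 19 fragments and its width from 5047 to 337 bp. The peak of *Rhag*, the Rh-associated glycoprotein, ranked 74.5 with vehicle and was missing with curcumin. *Add2*, the beta-adducin gene, went from 76.9 to no peak, *Kel* from 74.9 to no peak and *Dmtn*, encoding the actin-bundling protein dematin, from 77.6 to 3.04. *Ank1*, which anchors spectrin to the anion exchanger, fell from 79.9 to 34.3, and *Sptb* from 79.7 to 29.9. The peaks of *Epb41*, *Slc2a1* and *Add1*, which many other cells use, ranked 93.5 and 92.6, 85.7 and 88.7, and 94.9 and 91.2. When only the 16 genes with a peak in both libraries were counted, the median change was −19.9.

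The list of erythroid transcription factors was split. It also holds *Epor*, a receptor gene, and *Ikzf1*, a factor of other lineages. Of 18 genes, 4 fell (22.2%, against 10.9% of all genes) and none rose, with a median of −6.28. The master regulator *Gata1* went from rank 62.1 and the erythropoietin receptor *Epor* from 76.4 to no peak, and *Gfi1b*, the erythroid and megakaryocytic relative of *Gfi1*, fell from 71.9 to 26.4 while its peak shrank from 4909 to 327 bp. *Tal1*, a basic helix-loop-helix factor of blood stem and erythroid cells, fell from 88.2 to 64.5. By contrast *Klf1*, the activator of adult beta-globin, ranked 86.2 and 81.7, *Nfe2* 89.0 and 84.6 and *Lmo2* 99.3 and 98.1, all within 20 points, though the summit of the *Klf1* peak lay outside the window. Of the 7 heme biosynthesis enzymes with a peak, 1 fell. It was *Alas2*, whose product starts heme synthesis in red cell precursors, which went from 69.0 to no peak.

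Around the genes of the erythroid transcription factor list the distal H3K9ac sites were sparse with curcumin. Among sites nearest to its 18 genes, 126 of 170 (74.1%, Wilson 95% interval 67.1 to 80.1) were called with vehicle only and 8 with curcumin only. The covered length was 105 kb with vehicle and 25.05 kb with curcumin. Near red cell membrane genes, 72 of 84 (85.7%, 76.7 to 91.6) were vehicle only, and the length went from 65.5 to 8.59 kb. Over all 26262 distal sites within 100 kb of a coding TSS, 49.7% were vehicle only and 12.8% curcumin only. These intervals cover counting error only. They count each site as separate although many sites lie near the same gene, so the uncertainty is wider than they show. *Zfpm1*, encoding the GATA1 cofactor FOG-1, had 27 vehicle-only sites of 31, and the phosphatase gene *Ptpre* 27 of 37, the most of any gene. *Zfpm1* distal coverage fell from 23.3 to 2.16 kb while its promoter ranked 81.6 and 67.1. *Ikzf1*, a zinc finger factor of lymphoid and myeloid development, had 22 vehicle-only sites of 26, and *Bcl11a*, the silencer of fetal globin genes, 21 of 25. Their promoters kept ranks of 99.1 and 88.0, and of 81.9 and 76.1. Both genes and *Zfpm1* are on the erythroid list, and many of its 126 vehicle-only sites lie near these genes.

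**Figure D2:**
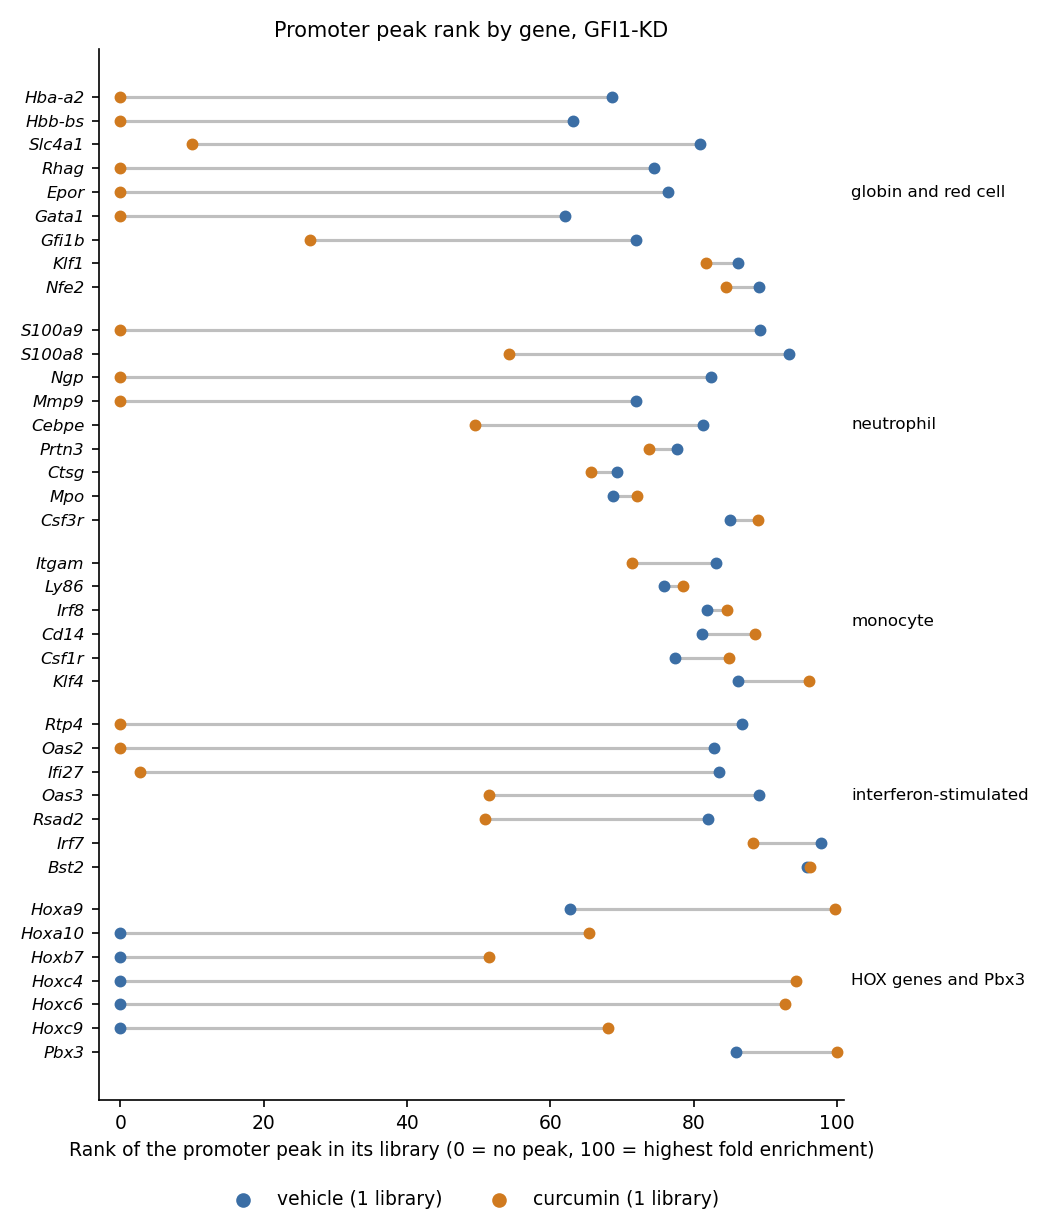
Rank of the promoter peak of 38 genes in the 2 *GFI1-KD* libraries on a scale from 0 (no peak) to 100 (highest fold enrichment), with vehicle in blue and curcumin in orange, 1 library each. Most red cell and several neutrophil granule genes lay at or near 0 with curcumin, *Mpo* and *Csf3r* did not, and the *HOX* genes moved to the right.

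Neutrophil granule and effector genes ranked lower. Of 23 genes with a peak, 14 fell (60.9%, against 10.9% of all genes) and none rose, and the median was −37.0. *S100a9* (chr3:90692632-90695721) and *S100a8*, the subunits of calprotectin, ranked 89.2 and 93.3 with vehicle, and with curcumin *S100a9* had no peak and *S100a8* ranked 54.2. The granule genes *Ngp* and *Mmp9* had ranks of 82.4 and 71.9 with vehicle and no peak with curcumin, as did *Retnlg* with 74.0. *Ltf* and *Camp*, which encode the secondary granule proteins lactoferrin and cathelicidin, had ranks of 75.4 and 74.9 with vehicle and no peak with curcumin, although their summits lay outside the promoter window. *Cebpe*, the factor that switches on secondary granule genes, fell from 81.4 to 49.5.

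Not all genes of the list fell. Among those of the primary granules, which promyelocytes make, *Mpo*, encoding myeloperoxidase, ranked 68.7 and 72.0, *Ctsg*, encoding cathepsin G, 69.2 and 65.6, and *Prtn3*, encoding proteinase 3, 77.7 and 73.8. The G-CSF receptor gene *Csf3r* ranked 85.0 and 88.9. *Elane*, encoding neutrophil elastase and also of the primary granules, fell from 49.0 to 12.1. These genes were picked out after their values were seen, and the stages of the lineage are not compared. Distal sites nearest to the list were vehicle only in 44 of 65 cases (67.7%, 55.6 to 77.8), against 49.7% of all sites within 100 kb. When only the 14 promoters with a peak in both libraries were counted, the median change was −7.34.

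Promoters of monocyte and macrophage genes stayed near the median of all genes. Of 25 genes, 2 fell (8%, against 10.9% of all genes) and none rose. The median was −3.37, or 3.09 with the same number of top peaks per list. Of their distal sites, 37 of 111 (33.3%, 25.3 to 42.5) were vehicle only, below the 49.7% of all sites within 100 kb. *Klf4*, a factor of monocyte differentiation, ranked 86.2 and 96.1, the M-CSF receptor gene *Csf1r* 77.4 and 84.9, and *Cd14*, the lipopolysaccharide co-receptor, 81.2 and 88.5. *Irf8*, which directs progenitors towards monocytes, had a peak 8115 and 7870 bp wide at ranks of 81.9 and 84.7. The 20 myeloid transcription factor genes had a median of −1.85 with 2 falls (10%, against 10.9% of all genes).

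Megakaryocyte and platelet genes fell in 8 of 15 cases, with a median of −24.2. *Gp5* and *Gp1ba*, subunits of the von Willebrand factor receptor, had ranks of 67.3 and 56.3 with vehicle and no peak with curcumin. *Gp9* went from 65.8 to 9.94, although the summit of its vehicle peak lay outside the promoter window. Mast cell, basophil and eosinophil genes fell in 5 of 8 cases (median −23.0), among them the IL-33 receptor gene *Il1rl1*, which went from 65.8 to no peak. Dendritic cell genes fell in 6 of 11 (median −20.6) and NK and cytotoxic genes in 3 of 4 (median −29.4). Of all genes 10.9% fell and 1.2% rose, and none of these 4 lists had a gene that rose. With the same number of top peaks per list their medians were −10.2, −6.84, −7.34 and −14.0, and with the summit required inside the window the megakaryocyte median was −10.7.

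Lymphoid genes had few promoter peaks in either library. Of 12 B-lineage genes, 5 fell, including *Ebf1*, a factor of B-cell commitment, which went from 56.3 to no peak. Distal sites near B-lineage genes ran the other way. Of 40 sites, 18 (45%, against 12.8% of all sites within 100 kb) were called with curcumin only. Another 7 (17.5%, against 49.7%) were called with vehicle only. Of the 18 curcumin-only sites, 10 lay near *Bach2*, a repressor that holds back plasma cell differentiation. Of 13 T-lineage genes, 1 fell and 1 rose. The gene that rose was *Cd28*, the T-cell costimulatory receptor, at rank 57.8 with curcumin and without a peak with vehicle. Of 14 MHC class II genes, 6 fell, among them *H2-Ab1* and *H2-Aa*, the chains of I-A, from 69.2 and 65.3 to no peak. Over all genes 10.9% fell and 1.2% rose.

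Interferon-stimulated genes ranked lower almost throughout. Of 51 genes with a peak, 50 had a lower rank with curcumin, 21 fell (41.2%) and none rose. The median was −14.7, or −9.63 with the same number of top peaks per list. Over all genes most ranked lower, 10.9% fell, and the median was −4.14, or −0.76 with the same number of top peaks. Among the 44 with a peak in both libraries, 22 had a width halved or less. *Rtp4*, a chaperone of G protein-coupled receptors, ranked 86.7 with 160 fragments with vehicle and had no peak with curcumin. *Oas2* (chr5:120730333-120749853) and *Oas1a*, which make the oligoadenylate that activates RNase L, ranked 82.9 and 77.7 with vehicle and had no peak with curcumin, and *Oas1a* belongs to a cluster of near-identical copies. *Ifi27* fell from 83.5 to 2.75 and from 154 to 21 fragments, and *Samd9l*, an antiviral factor, from 86.0 to 14.0. *Oas3*, *Rsad2* and *Usp18*, the last of which damps interferon signalling, fell from 89.1 to 51.5, from 82.0 to 50.9 and from 85.8 to 52.0.

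Most regulators of the pathway stayed within 20 points. *Irf7* ranked 97.8 and 88.3, and the target gene *Bst2*, which tethers budding virions, 95.7 and 96.3. Of 31 interferon and STAT signalling genes, 1 fell (3.23%, against 10.9% of all genes) and the median was −4.51. Near interferon-stimulated genes, 56 of 75 distal sites (74.7%, 63.8 to 83.1) were vehicle only and 2 were curcumin only. Over all distal sites within 100 kb of a coding TSS the shares were 49.7% and 12.8%. In the *GFI1-36N* pair 11 of 52 interferon-stimulated genes fell and none rose, with a median of −7.41. Over all genes of that pair 2.28% fell and 7.97% rose, with a median of 2.61.

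The ISRE letters were found in the 250-base promoters of 360 of the 12171 genes with a start in the annotation (2.96%), of 54 of the 1329 genes that fell (4.06%) and of 16 of the 51 interferon-stimulated genes (31.4%). They were found in 11 of the 21 interferon-stimulated genes that fell and in 5 of the 30 that did not. The GATA letters were in 6.35% of all promoters and in 10 of 45 promoters of the red cell lists (22.2%). In 300-base windows at distal summits the GATA letters were in 14.1% of all sites, 14.8% of vehicle-only sites and 13.02% of vehicle-only sites near red cell genes. A match is a run of letters and not a bound site.

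Against this background the *HOX* genes stood out on the other side. No gene of the Hoxc cluster had a promoter peak with vehicle, and 5 had one with curcumin. *Hoxc4* and *Hoxc5* shared a peak of 6729 bp at rank 94.3 (238 fragments), *Hoxc6* had a peak of 9277 bp at 92.7, and *Hoxc9* and *Hoxc8* ranked 68.1 and 65.6. These genes lie together within chr15:102967443-103036852 and pattern the body axis, and posterior *HOX* genes maintain self-renewal in blood progenitors. In the *GFI1-36N* pair the same 5 genes had a median change of 0.87, against 2.61 over all genes of that pair. The Hoxc median in the *GFI1-36S* pair was −46.4, against −13.0 over all genes of that pair. Other vehicle libraries did have peaks at these genes. *Hoxc4* ranked 99.0 with *GFI1-36N* vehicle and 68.9 with *GFI1-36S* vehicle, and *Hoxc6* ranked 98.7 and 86.4. All 6 distal sites near Hoxc genes were called with curcumin only.

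At the Hoxa cluster a single curcumin peak of 20528 bp (chr6:52210728-52231255, rank 99.7) spanned *Hoxa7* and *Hoxa9* and reached the start of *Hoxa3*, the widest peak in either library. With vehicle the same stretch held 10 separate peaks that covered 28.7% of it. *Hoxa9*, a driver of leukaemic self-renewal, ranked 62.8 with vehicle, *Hoxa7* ranked 74.4, and *Hoxa10* had a peak with curcumin only, at rank 65.4. *Hoxa5* had a peak with vehicle only, at rank 42.3. In other vehicle libraries *Hoxa9* ranked high, at 99.8 with *GFI1-36N* vehicle and 99.3 with *GFI1-36S* vehicle. In the *GFI1-36S* pair all 7 Hoxa genes with a peak fell (median −81.1). Over all genes of that pair 35.9% fell, with a median of −13.0. In *GFI1-KD* the list median was 25.3, with 4 of 7 genes rising, against 1.2% of all genes. Since the wide peak has a single summit, this median turned to −10.1 when the summit had to lie inside the promoter window. In the Hoxb cluster *Hoxb6*, *Hoxb7* and *Hoxb8* had peaks with curcumin only, at 44.1, 51.5 and 54.5, and *Hoxb2*, *Hoxb3* and *Hoxb5* with vehicle only, at 19.6, 6.62 and 28.6. None of the 9 Hoxd genes had a promoter peak in either library.

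Of 8 HOX cofactor genes with a peak, 7 ranked lower, as most genes did. Of the 8, 2 fell and none rose, and the median was −10.2, against −4.14 over all genes. Against that direction *Pbx3* ranked 85.8 with vehicle in a peak of 2896 bp and 99.97 with curcumin in a peak of 17785 bp. *Meis1*, another cofactor, ranked 63.5 and 61.4. Stem cell genes moved in both directions. Of 26 stem and progenitor genes with a peak, 4 fell (15.4%) and 4 rose. Their median was −2.84, or 2.15 with the same number of top peaks per list. Over all genes 10.9% fell and 1.2% rose. *Mecom* and *Prdm16*, related zinc finger factors of stem cells, had peaks with curcumin only at 42.4 and 68.6, and *Hlf*, a stem cell factor, fell from 75.8 to 38.1.

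Wide peaks set the libraries apart in both directions. Peaks of 4 kb or more numbered 977 with vehicle and 319 with curcumin, yet those of 10 kb or more numbered 11 and 14, and those of 15 kb or more 0 and 3. The 39 vehicle peaks of 8 kb or more were mostly found again, since curcumin peaks covered a median of 83.5% of them and 1 was under 50% covered. Of the 26 curcumin peaks of that width, 15 were under 50% covered with vehicle and 7 met no vehicle peak. Besides the *HOX* stretches and *Pbx3* they lay at *Zbtb20*, encoding a zinc finger repressor (16147 bp, 7.73% covered with vehicle), at *9930021J03Rik* (12636 bp, 0%), in an intron of *Adk*, which encodes adenosine kinase (12050 bp, 0%), in an intron of *Ikzf2*, encoding the Ikaros relative Helios (11517 bp, 0%), at *Eya1*, a transcriptional coactivator and phosphatase gene (9938 bp, 29.3%), in *Zcchc7* (9793 bp, 0%), at *Phip* (9455 bp, 0%) and at *Ascc3* (9212 bp, 0%).

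**Figure D3:**
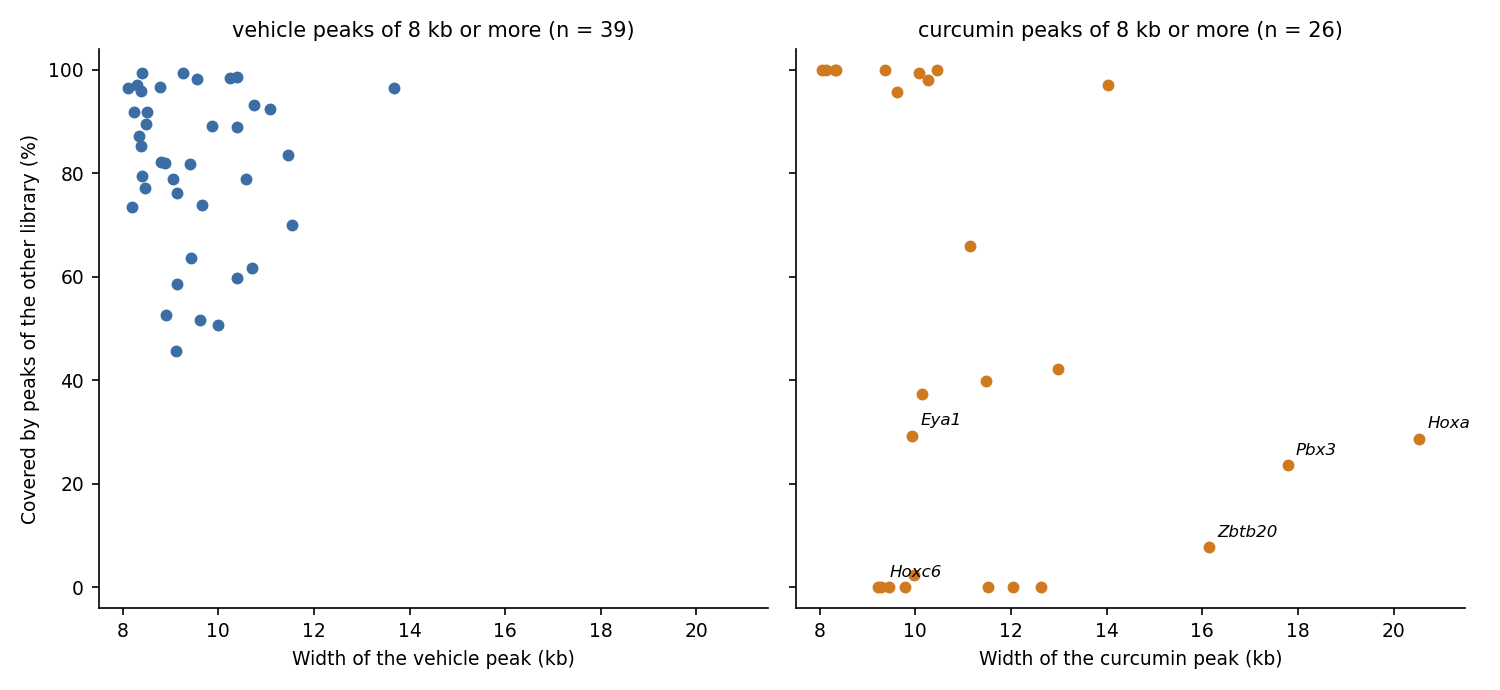
Each *GFI1-KD* peak of 8 kb or more by its width in kb (horizontal axis) and the share of it covered by peaks of the other *GFI1-KD* library in percent (vertical axis), for 39 vehicle peaks (left) and 26 curcumin peaks (right). Of the vehicle peaks 1 lies under 50%, against 15 of the curcumin peaks.

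Most of these 15 stretches were wide in other libraries as well. Peaks covered at least 50% of 13 of them in *GFI1-36N* vehicle (median 95%), of 14 in *GFI1-36N* curcumin (99.3%) and of 12 in *GFI1-36S* vehicle (96.0%), but of 1 in *GFI1-36S* curcumin (0%). The vehicle library of *GFI1-KD* had a median of 2.31%, the value by which the 15 were chosen. The intron of *Ikzf2* was no more than 8.22% covered in any of these libraries.

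**Figure D4:**
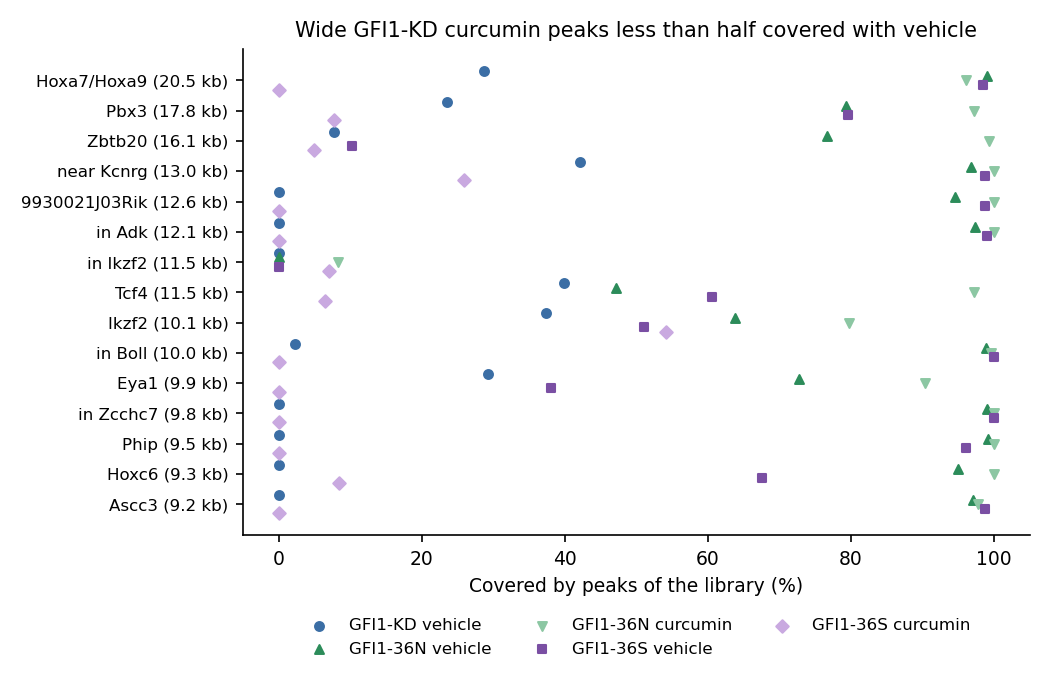
Share of the 15 wide *GFI1-KD* curcumin peaks covered by peaks of each of the other 5 libraries in percent, 1 symbol per library, with the width in parentheses. The 2 *GFI1-36N* libraries and *GFI1-36S* vehicle lie mostly near 100%, and *GFI1-KD* vehicle (chosen under 50%) and *GFI1-36S* curcumin mostly near 0%.

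Away from promoters, H3K9ac sites were also mostly those of the vehicle library. Of 28014 sites with no base within 1 kb of a coding TSS, 13649 (48.7%) had a peak with vehicle only, 3787 (13.5%) with curcumin only and 10578 in both libraries. Vehicle-only sites made up 78.3% of those in a single library (Wilson 95% interval 77.7 to 78.9), or 60.3% when both lists were cut to the same number of top peaks. The share was 31.9% for *GFI1-36N* and 87.1% for *GFI1-36S* mice. At sites in both libraries the median width was 722 bp with vehicle and 552 bp with curcumin, 69.8% were narrower, and the rank fell at 2713 and rose at 659. Sites in a single library were mostly weak. In the lowest 10 rank points, 83.1% of vehicle and 50.2% of curcumin distal peaks had no partner, against 20.3% and 4.27% between ranks of 60 and 70.

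**Figure D5:**
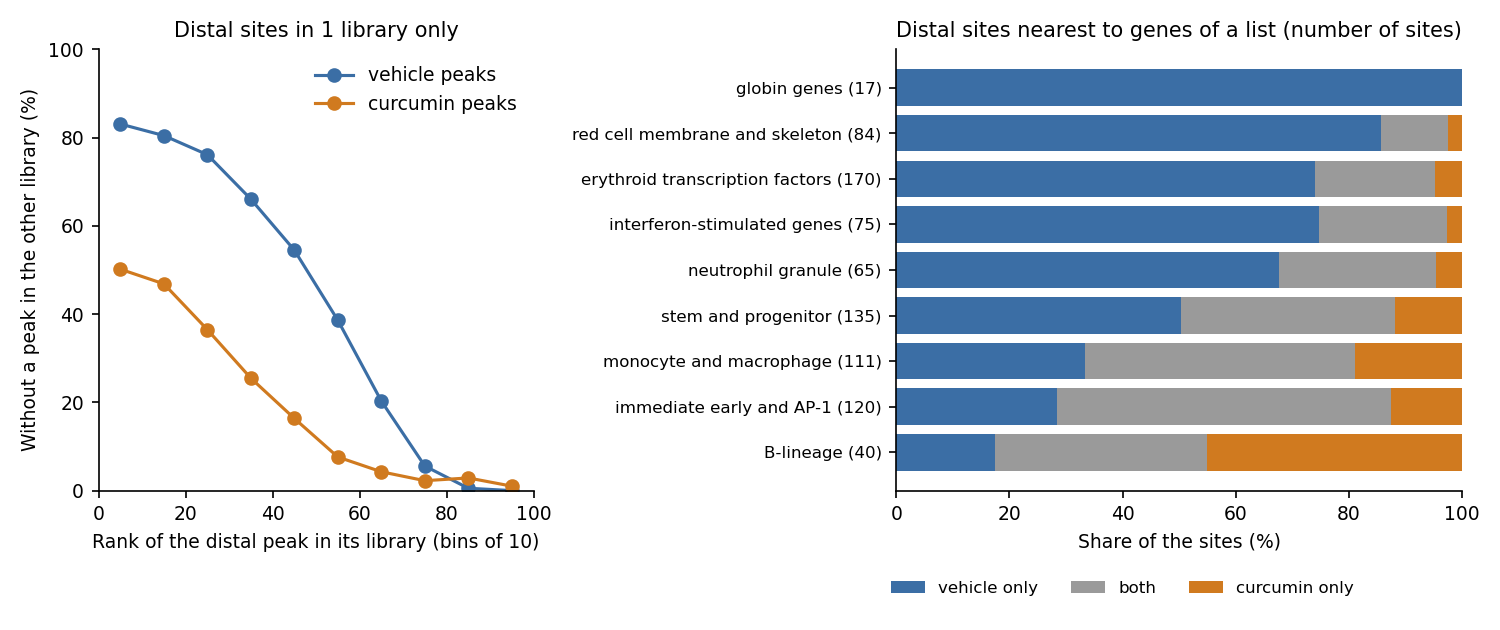
Left, share of distal peaks with no overlapping peak in the other *GFI1-KD* library (percent) by their rank in bins of 10, for vehicle (blue) and curcumin (orange). Right, distal sites by the list of their nearest gene, as the percent found with vehicle only, in both or with curcumin only (number of sites in parentheses), from 100% vehicle only for globin genes to 17.5% for B-lineage genes.

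The sites in a single library also differed in place. Of vehicle-only sites 62.0% lay in introns and 32.6% between genes, at a median of 8808 bp from the nearest coding TSS, whereas of curcumin-only sites 48.0% lay in introns and 46.4% between genes, at 15344 bp. Clusters of them were frequent with vehicle, where 675 genes had 5 or more vehicle-only sites, and 49 genes had 5 or more curcumin-only sites. After *Zfpm1* and *Ptpre* came *Ankrd11* with 26 vehicle-only sites, *Mvb12b*, *Mgll* and *Ikzf1* with 22 each, *Tbc1d8* and *Bcl11a* with 21, *Mpp7* with 20 and the ETS factor gene *Etv6* with 19. Of these, *Mgll*, encoding monoacylglycerol lipase, also lost its promoter peak of rank 84.5, and the other genes kept theirs. *Adk* had 16 curcumin-only sites of 17 and went from 0.21 to 29.2 kb, and *Foxp1*, *Bach2* and *Umad1* had 10 each. *Tmem47* had 9, and its promoter ranked 72.9 with curcumin and had no peak with vehicle. In the *GFI1-36N* vehicle list, 30.7% of the vehicle-only and 56.0% of the curcumin-only sites met a peak, against 56.7% of all distal sites. In the *GFI1-36S* vehicle list the shares were 40.3% and 38.6%, against 57.3% of all distal sites.

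The highest-ranked vehicle-only distal site lay in an intron of *Sdccag8*, a centrosome gene (chr1:176833785-176836185), at rank 84.3. The site upstream of *Slc4a1* (chr11:102373579-102377364), 3786 bp wide with 107 fragments at rank 79.7, tied with an exonic site of *Sv2c*. The others of the top 8 were near *Crtac1* (81.1), *Arfgef1* (79.7), *Stx11* (78.3), *Phospho1* (78.3) and *Gramd1b* (77.7). With curcumin only, the highest were intronic sites of *Catsperd*, a sperm cation channel subunit (90.6), *Nav3* (86.6), *Ikzf2* (85.2), *Umad1* (84.4) and *Adk* (83.4), a site near *Scyl3* in *Kifap3* (82.9) and sites near *Zbtb20* (81.4) and *Smoc1* (76.5). The *Nav3* site had no peak in any of the *GFI1-36N* and *GFI1-36S* libraries, and the *Catsperd* site had 1 in all 4 of them. Of the shared distal sites, that near *Ormdl3*, an inhibitor of sphingolipid synthesis, narrowed the most, from 3497 to 192 bp. The site with its summit in an exon of *Mars2* widened the most, from 230 to 9972 bp.

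The ETS letters were in 23.8% of all distal windows. They were in 74 of the 228 curcumin-only sites above rank 50 (32.5%) and in 383 of the 1822 vehicle-only sites above rank 50 (21.0%). The GFI1 letters were in 2.43% of all windows, in 2.12% of vehicle-only and in 3.20% of curcumin-only windows. Median GC content of the windows was 47.7% for vehicle-only and 47.0% for curcumin-only sites.

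Several of the largest single promoter changes depended on where the summit lay. *Kdm6b*, an H3K27 demethylase gene, went from 98.0 to 0.031 in the 1 kb window but ranked 98.0 and 99.3 in a 3 kb window. The 5 highest-ranked vehicle-only promoters, *AC141477.1*, *Tmem88*, *Ttc23*, *Exoc3l* and *Bricd5*, ranked 96.1, 93.0, 91.7, 91.9 and 90.7 with vehicle, but each had a curcumin peak within 3 kb at 97.7, 92.4, 93.1, 79.2 and 87.0. Similarly the rises of *Lamb2* (32.6 to 94.2) and *Morn3* (0.26 to 68.8) were absent with 3 kb, at 96.0 and 94.2 and at 77.4 and 68.8. Falls that did not depend on the window in this way included *Abcg2*, a porphyrin and drug efflux pump (81.1 to 2.20), *Ffar2*, a short-chain fatty acid receptor of neutrophils (75.6 to 0.43), and *Oasl2* (75.2 to 1.18). *Mdga1* ranked 77.8 and 3.86, but its vehicle peak (chr17:29841901-29842569) and curcumin peak (chr17:29888101-29888305) lay at different places. Among the rises were *Pdgfrb*, a growth factor receptor of stromal cells (6.62 to 55.4), *Gpnmb*, a macrophage glycoprotein gene (28.6 to 73.5), and *Rap1gap* (14.9 to 60.5). With *GFI1-36N* vehicle *Pdgfrb* ranked 58.0 and *Gpnmb* 72.7, and *Rap1gap* had no peak. The highest-ranked curcumin-only promoters besides the Hoxc genes were those of *Lemd3*, an inner nuclear membrane protein gene (97.8), and *Lin28b*, which blocks let-7 processing and marks fetal blood progenitors (89.3). Both had peaks with *GFI1-36N* vehicle, at 97.6 and 97.8. With *GFI1-36S* vehicle *Lemd3* had no peak and *Lin28b* ranked 48.8.

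Genes that every cell uses moved little. None of 51 cytosolic ribosomal protein genes fell or rose, with a median of −0.44, and the same held for 47 oxidative phosphorylation (median −2.12), 29 proteasome (−2.23), 35 DNA replication (−3.18) and 19 histone acetyltransferase genes (0.067). Of 25 immediate early and AP-1 genes 1 fell, with a median of 0.099, and 34 of 120 distal sites near them (28.3%, 21.0 to 37.0) were vehicle only, against 49.7% of all. Of 30 NF-kB pathway genes 4 fell (13.3%, against 10.9% of all genes), with a median of −1.09. The peaks narrowed nonetheless, since 49 of the 51 ribosomal protein promoters were narrower with curcumin, against 87.9% of all promoters with a peak in both libraries.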

How the data were processed

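Each library was made from frozen BM cells with an antibody to acetylated H3K9. The lists are MACS2 peaks on mm10, 1 list per library, from adapter-trimmed reads (Trim Galore, BWA-MEM), and the authors left out peaks in ENCODE black list regions. The control and threshold of each list and the handling of duplicates were not given in the sources used here, and the labels' input and IgG samples were not analysed here. Per peak, the deposited ratio is the fold enrichment at the summit over the local background, the authors' MACS2 also gave each peak a −log10 p and a −log10 q, and the deposited integer score was not used. No value is scaled between libraries.

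Ranks, merged sites (1 bp overlap), promoters (1 kb around the TSSs of 21938 coding genes, GENCODE M21) and the nearest coding gene within 100 kb were computed with Python 3.11.15, numpy 2.4.6 and pandas 2.3.3, Wilson 95% intervals with scipy 1.17.1 and sequences with pysam 0.24.0. Fragments at summits were recovered from the fold and p values. Intervals cover counting error only and count neighbouring sites as separate, so they are too narrow where sites cluster near a gene. The steps were tested on simulated data. The comparison, the 40 gene lists, the motifs and the markers were chosen with earlier results of these data known. The genes named are *Gfi1*, those the study names, the largest changes in rank, width and site number, and up to 4 leading members of a list. Some are not reported here, and members set against them were added after their values were seen. Alternatives were ranks by −log10 p, a −log10 q of at least 5, equal numbers of top peaks, a 3 kb window, the summit inside the window, 50% overlap and peaks in both lists. Each group has 1 library, so no test was run.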

Additional observations from a re-analysis of the deposited data

Results flagged for a closer look

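A further look is due where the *GFI1-KD* and *GFI1-36N* pairs moved in opposite directions under the same treatment. The *GFI1-36N* lists are named as heterozygous for vehicle and homozygous for curcumin, so zygosity and treatment cannot be told apart in that pair. Each pair has 1 library per group, so no test of these differences was run, and they are untested. The median promoter rank change was −4.14 points in *GFI1-KD* and 2.61 in *GFI1-36N*, and vehicle-only sites made up 78.3% and 31.9% of the distal sites in a single library. The median log2 width ratio of curcumin over vehicle was −0.27 and 0.04 at shared distal sites and −0.29 and 0.06 at shared promoters. Red cell membrane genes had a median change of −47.7 points in *GFI1-KD* and 5.11 in *GFI1-36N*, neutrophil granule genes −37.0 and 7.69, megakaryocyte and platelet genes −24.2 and 10.5, and mast cell, basophil and eosinophil genes −23.0 and 28.5. By its labels the *GFI1-36S* pair moved the same way as *GFI1-KD*, with a median promoter change of −13.0 points and a vehicle-only distal share of 87.1%. Its medians were −73.2 for red cell membrane, −66.6 for neutrophil granule, −56.5 for megakaryocyte and −62.6 for mast cell, basophil and eosinophil genes. The *GFI1-36S* file names give the opposite treatment, which would reverse these directions. The curcumin list was the shorter in *GFI1-KD* (30784 against 39272 peaks) and the longer in *GFI1-36N* (49213 against 39564), and the part of list length in these values was not tested across genotypes.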

How the results depend on the processing

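No paired analysis was possible because each group has 1 library. With the same number of top peaks in both lists, 880 promoters fell and 248 rose, the median rank change was −0.76, the vehicle-only share of distal sites in a single library was 60.3%, the log2 width ratio at shared distal sites was −0.30 and 3 lists, against 7, had a median of −20 points or lower. With a −log10 q of at least 5, the median change was −2.23 and the distal share 67.6%. The distal share was 76.5% with a 3 kb window and 77.6% when overlap had to reach 50% of the shorter peak. Counting only promoters with a peak in both lists, 660 fell, 45 rose, the median was −3.70 and 1 list had a median of −20 or lower. The Hoxa median turned from 25.3 to −10.1 with the summit required inside the window, since 1 peak with 1 summit spans several genes. Ranks by −log10 p turned 1 of 39 list medians, a −log10 q of at least 5 turned 4, the summit rule 3 and equal numbers of top peaks 8, among them monocyte (−3.37 to 3.09), T-lineage (−9.43 to 7.05), stem and progenitor (−2.84 to 2.15) and myeloid factor genes (−1.85 to 0.39), but of the 9 medians of at least 20 points either way only that of Hoxa turned. The causes of the other shifts were not tested. A missing peak does not show absent acetylation.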

Other observations

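The X chromosome had 713 peaks with vehicle and 699 with curcumin in *GFI1-KD*, or 98.0%, while the autosomes kept between 73.6% (chromosome 6) and 86.6% (chromosome 15). Each library had 1 peak at the X-linked gene *Xist* and 0 peaks on the Y chromosome. The cause of the X chromosome difference was not tested. Vehicle-only sites made up 64.2% of the X-linked distal sites in a single library and 84.5% on chromosome 7. The X-linked distal sites were not the same in both lists, since 136 had a peak with vehicle only, 76 with curcumin only and 156 in both.

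Endothelial and stromal genes had a promoter peak at 7 of 18 loci, with 2 falls and 1 rise. *Kdr*, a VEGF receptor gene, and *Col1a1*, a collagen gene, had ranks of 52.2 and 49.0 with vehicle and no peak with curcumin, and *Pdgfrb* rose from 6.62 to 55.4. The iron exporter gene *Slc40a1* fell from 80.9 to 26.4, and 3 of 16 iron handling genes fell in all. Of 18 growth factor receptor genes 4 fell (22.2%), among them *Kit* and *Epor*, and none rose. Over all genes 10.9% fell and 1.2% rose. Most genes had a lower rank with curcumin, and all 22 NRF2 antioxidant genes with a peak did. Their median was −3.61, against −4.14 over all genes, or −0.038 with the same number of top peaks per list. Only 1 of them, *Nqo1*, a quinone reductase gene, fell by 20 points or more, from 75.6 to 45.8.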
